A study of Mus musculus with 40 samples.

Results

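The Hox genes of the HoxA, HoxB, HoxC and HoxD clusters were described through their histone marks in brown adipose tissue. Members were chosen by name and position alone. The annotation held 39 Hox genes in 4 clusters, of which 38 were analysed as members, among 21851 protein-coding genes with an annotated start. HoxA held 10 members on chromosome 6, HoxB 10 on chromosome 11, HoxC 9 on chromosome 15 and HoxD 9 on chromosome 2. Each cluster was taken from its first to its last Hox gene with 10 kb on each side, which gave 125 kb for HoxA, 194 kb for HoxB, 136 kb for HoxC and 117 kb for HoxD. Together the clusters made up 0.0210% of the bases of the 21 assembled chromosomes.

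The tissue came from wild type C57BL/6N mice, an inbred strain, at 20 weeks of age. H3K4me3, H3K27ac, H3K4me1 and H3K27me3 were profiled by chromatin immunoprecipitation with sequencing, which uses an antibody to pull down DNA wrapped on histones that carry the mark. Mice 1 and 2 were kept warm on a normal chow diet (NCD), and mice 4 and 5, also on NCD, spent 24 h in the cold (4 °C). Mice 7 and 8 were kept warm and mice 10 and 11 cold in the same way. These 4 ate a high-fat diet (HFD), which began at 8 weeks and lasted 12 weeks. Each mouse gave a peak list for each of the 4 marks, hence 32 lists, called against the mouse's own input library. The study's methods place the depot between the shoulder blades (interscapular), while the design text of the series calls it inguinal. That difference bears on body position and could not be settled from the peaks.

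Hox genes encode homeodomain transcription factors that give cells their position along the body axis. Within a cluster the genes are numbered by paralog group in the order in which they lie on the chromosome. Low-numbered genes are used from the head backwards and high-numbered genes, of the Abd-B type, in the rear trunk, the limb ends and the tail. Adult fibroblasts and fat depots keep a part of this order. H3K4me3 marks starts of genes that are active or poised, H3K27ac marks active starts and enhancers, H3K4me1 is typical of enhancers, and H3K27me3 is laid down by Polycomb proteins on silenced developmental genes.

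A start site was called marked in a mouse when a peak of that mouse's list touched the 1000 bp on either side of it. Paralog groups 1 to 8 are called anterior here (22 genes) and groups 9 to 13 posterior (16 genes). A window of 300 bases around the start site, its last 50 inside the transcript, is shown for 5 genes at or beyond the line where H3K4me3 ended, since these are starts on which the pattern turned. Each is read 5′ to 3′ on the gene's own strand in GRCm38, and capitals mark each CG, the dinucleotide that is dense in CpG islands.
Hoxa9 (chr6:52226140-52226439, minus strand): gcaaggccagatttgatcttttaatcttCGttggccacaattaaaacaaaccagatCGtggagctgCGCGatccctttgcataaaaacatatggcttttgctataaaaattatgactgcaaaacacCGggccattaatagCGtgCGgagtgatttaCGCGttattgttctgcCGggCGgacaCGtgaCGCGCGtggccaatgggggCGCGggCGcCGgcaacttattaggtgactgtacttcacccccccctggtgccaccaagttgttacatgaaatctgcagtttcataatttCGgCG
Hoxa10 (chr6:52234890-52235189, minus strand): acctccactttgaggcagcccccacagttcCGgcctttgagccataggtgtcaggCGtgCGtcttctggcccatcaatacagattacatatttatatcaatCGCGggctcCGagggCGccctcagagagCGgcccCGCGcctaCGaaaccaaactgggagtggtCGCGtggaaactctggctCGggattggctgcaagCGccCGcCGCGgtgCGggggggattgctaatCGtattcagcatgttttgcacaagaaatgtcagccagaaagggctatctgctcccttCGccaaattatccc
Hoxb13 (chr11:96194066-96194365, plus strand): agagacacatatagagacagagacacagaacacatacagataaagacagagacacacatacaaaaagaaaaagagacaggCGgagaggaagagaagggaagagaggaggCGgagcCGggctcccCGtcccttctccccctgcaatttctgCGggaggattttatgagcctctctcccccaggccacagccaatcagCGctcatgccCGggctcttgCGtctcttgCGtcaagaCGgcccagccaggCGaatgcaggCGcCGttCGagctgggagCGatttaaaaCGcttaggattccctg
Hoxd9 (chr2:74697477-74697776, plus strand): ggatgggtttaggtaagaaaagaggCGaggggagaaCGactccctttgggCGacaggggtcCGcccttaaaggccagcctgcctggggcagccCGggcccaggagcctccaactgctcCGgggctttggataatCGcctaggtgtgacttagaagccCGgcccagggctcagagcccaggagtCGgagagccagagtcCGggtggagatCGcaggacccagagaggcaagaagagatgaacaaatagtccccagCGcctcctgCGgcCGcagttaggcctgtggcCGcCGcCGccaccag
Hoxd13 (chr2:74668060-74668359, plus strand): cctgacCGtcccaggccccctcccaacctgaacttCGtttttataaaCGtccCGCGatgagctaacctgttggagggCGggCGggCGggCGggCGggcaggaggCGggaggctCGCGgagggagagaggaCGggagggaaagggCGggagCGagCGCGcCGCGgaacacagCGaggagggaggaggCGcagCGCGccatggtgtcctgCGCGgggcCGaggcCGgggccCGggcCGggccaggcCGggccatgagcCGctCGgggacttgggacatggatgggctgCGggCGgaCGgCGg
Hoxa9 and Hoxa10, on opposite sides of the line, held 21 CG each. Hoxb13 held 16. Over all members the window held a median of 17 CG (range 2 to 47), with a median of 14 at anterior and 18.5 at posterior starts. The median over all protein-coding starts was 11. At least 10 CG were present at 16 of the 16 posterior starts, at 14 of the 22 anterior starts and at 53.2% of all protein-coding starts. At least 1 CG stood in every Hox window and in 94.6% of all protein-coding windows.

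The lists differed widely in length, and this touches each count below. H3K4me3 lists held 13517 to 24104 peaks and H3K27ac lists 3224 to 40604. H3K4me1 lists held 12 to 27568 and H3K27me3 lists 20 to 6428, with 6428 in mouse 5, 1392 in mouse 11 and at most 309 in the other 6 mice. Mice 7 and 10 had the shortest H3K4me3 and H3K27ac lists. Of 8 brown adipocyte markers, 8 had H3K4me3 at the start in at least 4 of 8 mice, Ucp1 among them in 8 of 8, and Alb and Afp, genes of liver, had none in any mouse. The brown depot genes Zic1 and Lhx8 had H3K4me3 in 7 and 8 mice. Of 3 genes listed here as white depot markers, Tbx15 had H3K4me3 in 8 mice, Lep in 4 and Tcf21 in none. Of 6 skeletal muscle markers only Acta1 had H3K4me3 (mice 1, 2, 4 and 5), of 4 macrophage markers 3 had it in at most 2 mice each, and of 3 endothelial markers all 3 had it in at least 7 mice.

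H3K4me3 was found at the anterior starts in most mice and at few posterior ones. It was present at 8 to 26 Hox starts a mouse (median 22). In 8 of 8 mice it marked 8 Hox genes (21.1% of 38), against 38.7% of all protein-coding genes. In at least 4 of 8 mice it marked 23 Hox genes (60.5%), against 54.9% of all. It was found in no mouse at 9 Hox starts (23.7%), against 40.8% of all protein-coding starts. The share of Hox starts marked in a mouse, 52.3% ± 16.4 (SD, n = 8), lay beside 52.6% ± 6.03 (SD, n = 8) of all protein-coding starts. H3K4me3 at Hox starts was thus near the share of all starts per mouse and in at least 4 mice, and below it among starts marked in 8 mice and among starts marked in none.

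**Figure D1:**
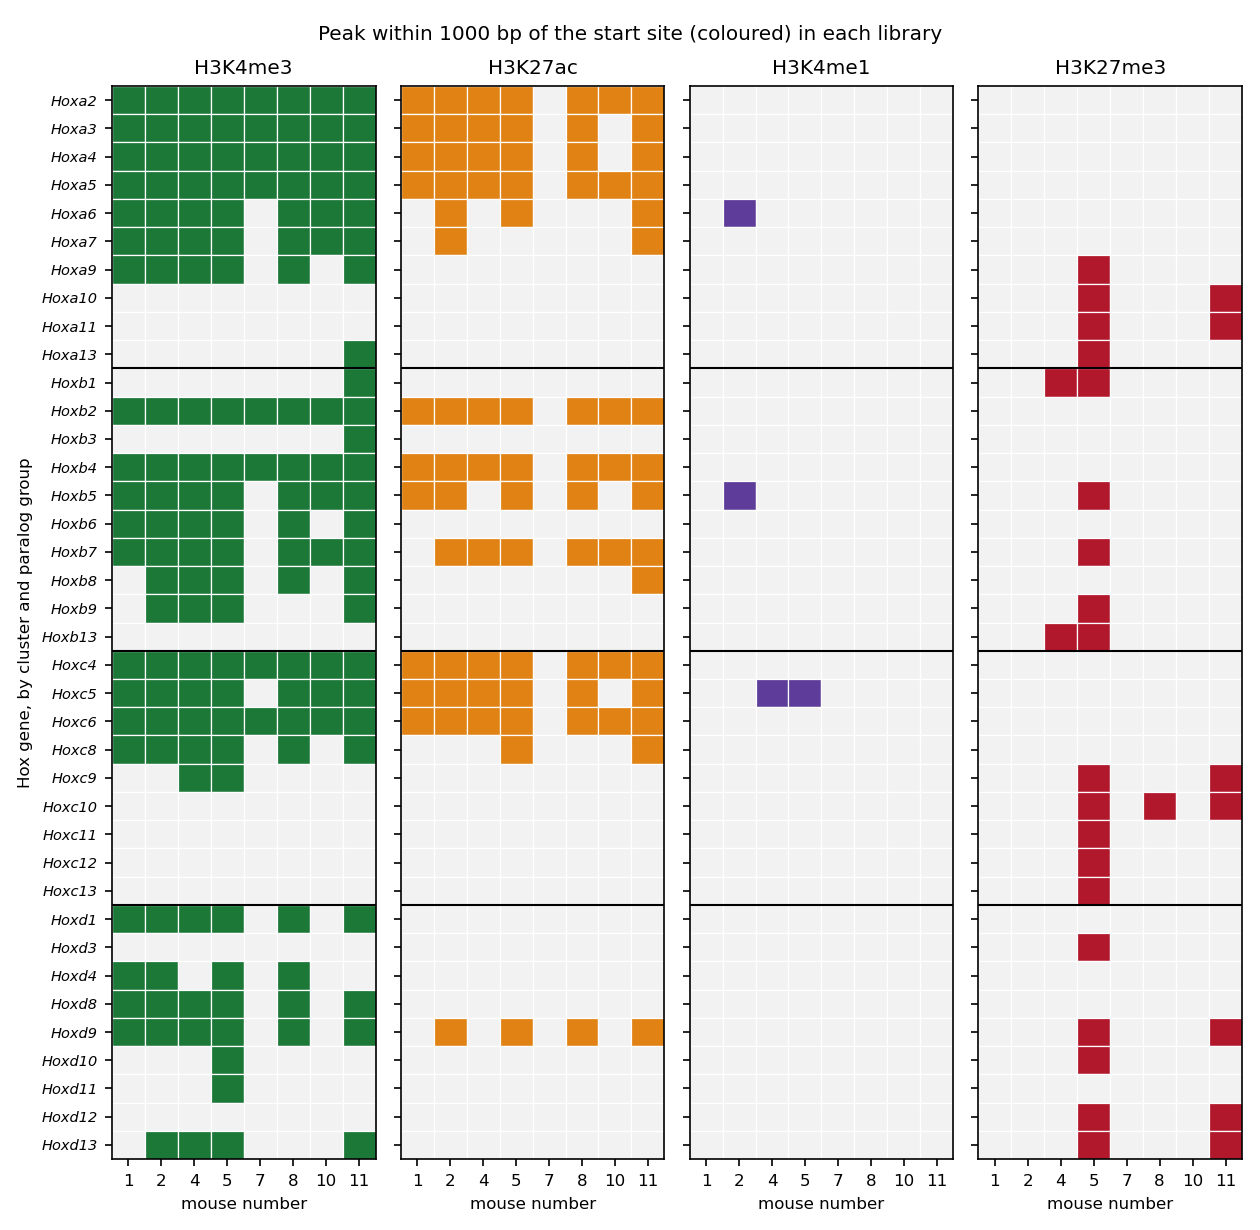
Presence of a peak within 1000 bp of each of the 38 Hox starts (rows, ordered by cluster and paralog group) in each mouse (columns), with a panel for each mark; coloured tiles have a peak and grey tiles have none. H3K4me3 tiles end at Hoxa9, Hoxb9 and Hoxc9 in HoxA, HoxB and HoxC apart from mouse 11 at Hoxa13, while H3K27me3 tiles stand mainly in mice 5 and 11 and mainly at the higher-numbered genes.

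In HoxA, H3K4me3 was present in 8 of 8 mice at Hoxa2, which patterns the hindbrain and the second pharyngeal arch, and at Hoxa3, Hoxa4 and Hoxa5. It was present in 7 mice at Hoxa6 and Hoxa7 and in 6 at Hoxa9. Hoxa10, a gene of the reproductive tract and the lumbar skeleton, and Hoxa11, a gene of the forearm and kidney, had none, and Hoxa13, a gene of the digits and genital tubercle, had it in mouse 11 only. The annotated coding start of Hoxa3 lies between those of Hoxa6 and Hoxa7, so its 8 mice are a count at that place. In HoxB, Hoxb2 and Hoxb4 had H3K4me3 in 8 mice, Hoxb5 and Hoxb7 in 7, Hoxb6 in 6, Hoxb8 in 5 and Hoxb9 in 4. Hoxb13, a gene of the tail and prostate that lies 77.2 kb beyond Hoxb9, had none.

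In HoxC, which has no genes of the lowest paralog groups, Hoxc4 and Hoxc6 had H3K4me3 in 8 mice, Hoxc5 in 7 and Hoxc8, a gene of the thoracic trunk, in 6. Hoxc9 had it in mice 4 and 5, and Hoxc10, Hoxc11, Hoxc12 and Hoxc13 had none in any mouse. In HoxD, Hoxd1, Hoxd8 and Hoxd9 had H3K4me3 in 6 mice and Hoxd4 in 4. Hoxd10 and Hoxd11 had it in mouse 5 only, Hoxd12 in none, and Hoxd13, which shapes the digits, in 4. The 9 HoxD starts were unmarked in mice 7 and 10, the pair with the shortest H3K4me3 lists.

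A few anterior starts went against the order. Hoxb1, a gene of the hindbrain, lies at the anterior end of HoxB and had H3K4me3 in mouse 11 only. Hoxb3 also had it in mouse 11 only, through a peak with its summit 1891 bp upstream, and Hoxd3 in none. The Hoxb3 start lay 24.5 kb from the anterior end of HoxB. On its upstream side, the 1 kb bins at 25, 26 and 27 kb held H3K4me3 in 7, 8 and 7 mice. The 1000 bp window reached only the peak of mouse 11, so the Hoxb3 count depends on the window. The windows of Hoxb3 and Hoxd3 held 3 and 2 CG, the lowest of the members. These genes have further annotated starts. At any of its 3 starts Hoxd3 had H3K4me3 in 7 mice and H3K27ac in 5, whereas Hoxb3, with 2 starts, stayed at 1 mouse for H3K4me3 and reached 3 for H3K27ac.

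Across the 38 genes, the number of mice with H3K4me3 fell with the paralog group (Spearman's rho −0.63), as did H3K27ac (−0.52), while H3K27me3 went the other way (0.59) and H3K4me1 stood at −0.15. Neighbouring genes share peaks and lists, so these values are descriptions without a test. In pooled counts by paralog group, H3K4me3 marked 7 of 16 possible gene and mouse pairs in group 1 and 16 of 16 in group 2. It marked 9 of 24 in group 3, 28 of 32 in group 4, 22 of 24 in group 5, 21 of 24 in group 6 and 14 of 16 in group 7. It marked 17 of 24 in group 8, 18 of 32 in group 9, 1 of 24 in each of groups 10 and 11, 0 of 16 in group 12 and 5 of 32 in group 13. The last 5 were Hoxd13 in 4 mice and Hoxa13 in 1. The decline was not even, since groups 1 and 3, at 43.75% and 37.5%, lay below group 9 at 56.25%.

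**Figure D2:**
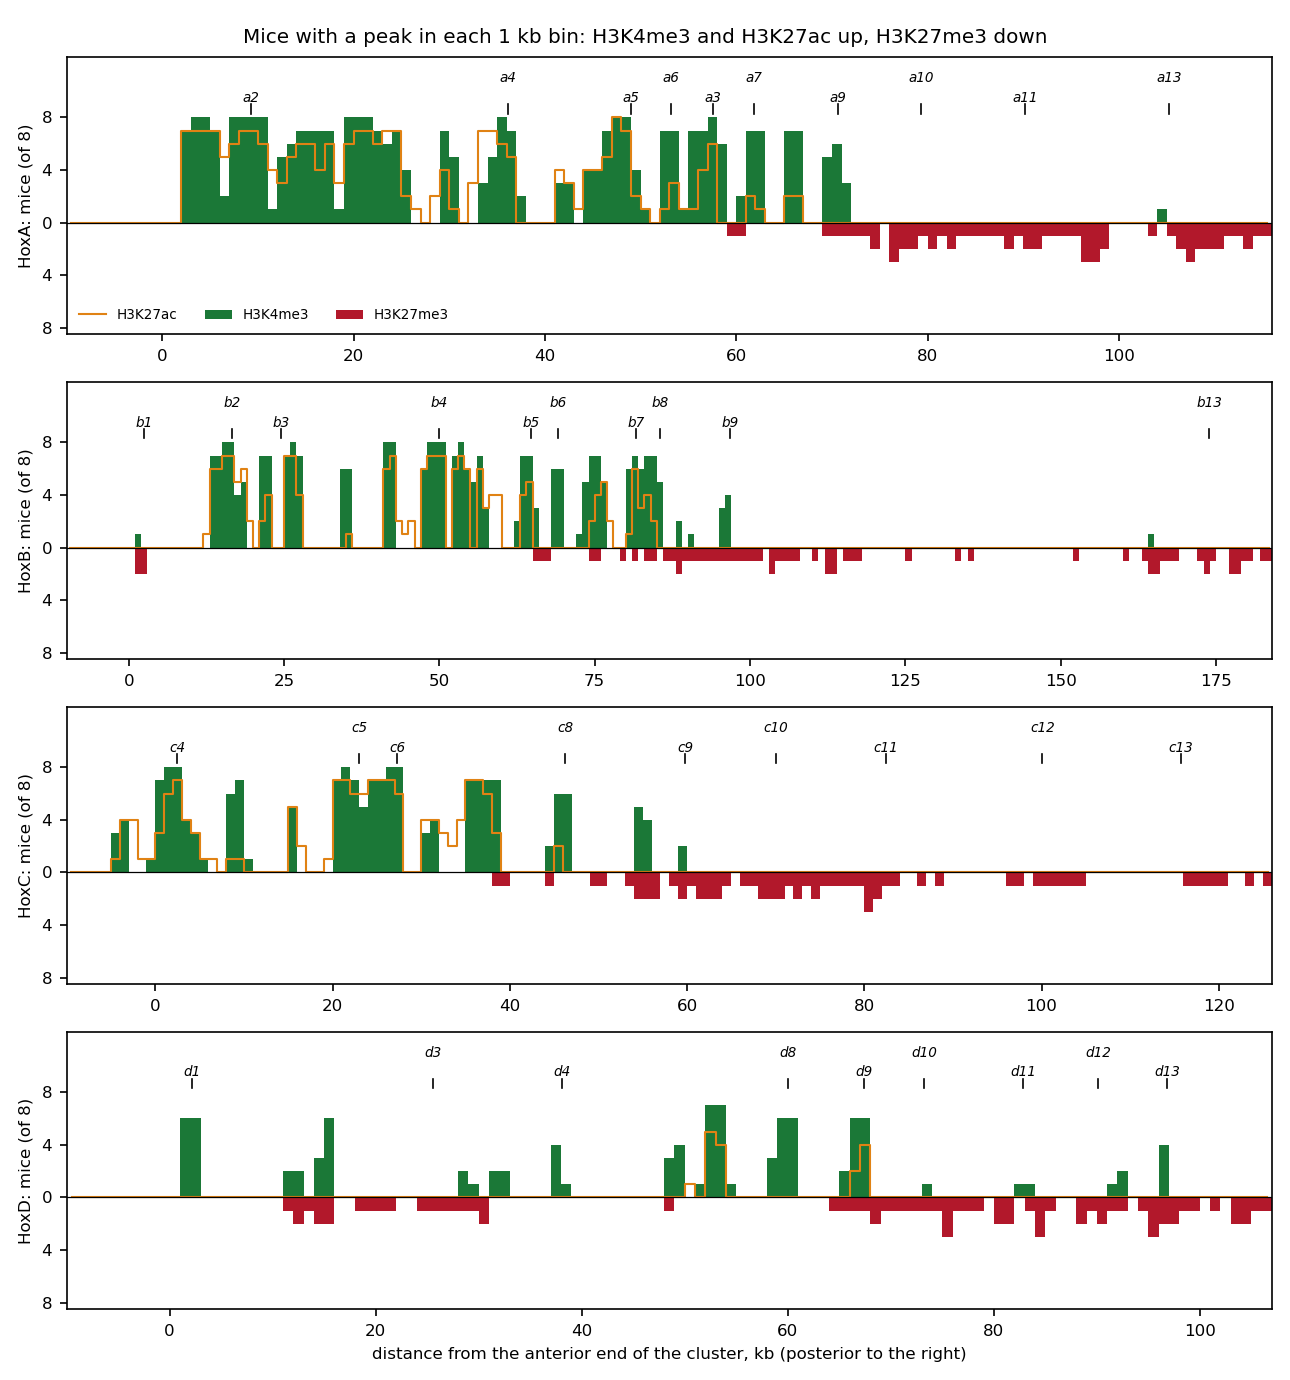
Number of mice (of 8) with a peak in each 1 kb bin along the 4 clusters, with distance from the anterior end in kb and posterior to the right; green bars up are H3K4me3, the orange line H3K27ac and red bars down H3K27me3, with gene starts ticked above. H3K27me3 reached at most 3 mice in any bin and covered mainly the side on which H3K4me3 and H3K27ac were absent.

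Within each mouse, the share of anterior starts with H3K4me3 was set against the share of posterior starts. It was 76.1% ± 18.8 against 19.5% ± 15.8 (SD, n = 8), a difference of 56.6 percentage points that had the same sign in 8 of 8 mice (exact permutation test of sign flips within mice, two-sided, p = 0.00781, the smallest that 8 mice allow, adjusted p = 0.0313 over 4 marks). The lowest anterior share was 36.4% in mouse 7 and the highest posterior share 43.8% in mouse 5, so that the sets overlapped between mice and not within any mouse. H3K27ac stood at 44.9% ± 21.2 of anterior and 3.13% ± 3.34 of posterior starts (SD, n = 8). That difference, 41.8 percentage points, held in 7 mice and was 0 in mouse 7 (exact permutation test, two-sided, p = 0.0156, adjusted p = 0.0313). With only the 3000 highest peaks of each list, the differences came to 2.27 points for H3K4me3 (p = 0.125, exact) and 9.09 for H3K27ac (p = 0.0625, exact), since few Hox starts carried peaks of that rank.

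H3K4me1 was called at 3 Hox starts in at least 1 mouse (7.89%), against 19.6% of all protein-coding starts. They were Hoxa6 and Hoxb5 in mouse 2 and Hoxc5 in mice 4 and 5. Its anterior share was 2.27% ± 3.44 and its posterior share 0 in each mouse (n = 8, exact permutation test, p = 0.25, adjusted p = 0.25). H3K27me3 differed in the opposite sense, with 2.84% ± 6.40 of anterior and 18.8% ± 33.7 of posterior starts (SD, n = 8), a difference of −15.9 points. It was higher at posterior starts in 4 mice and equal, at 0, in 4 (exact permutation test, two-sided, p = 0.125, adjusted p = 0.167). In mouse 4 this came from 1 gene in each set (4.55% against 6.25%) and in mouse 8 from 1 posterior gene, so mice 5 and 11 carried the difference. With 4 mice at 0, the test cannot go below 0.125.

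**Figure D3:**
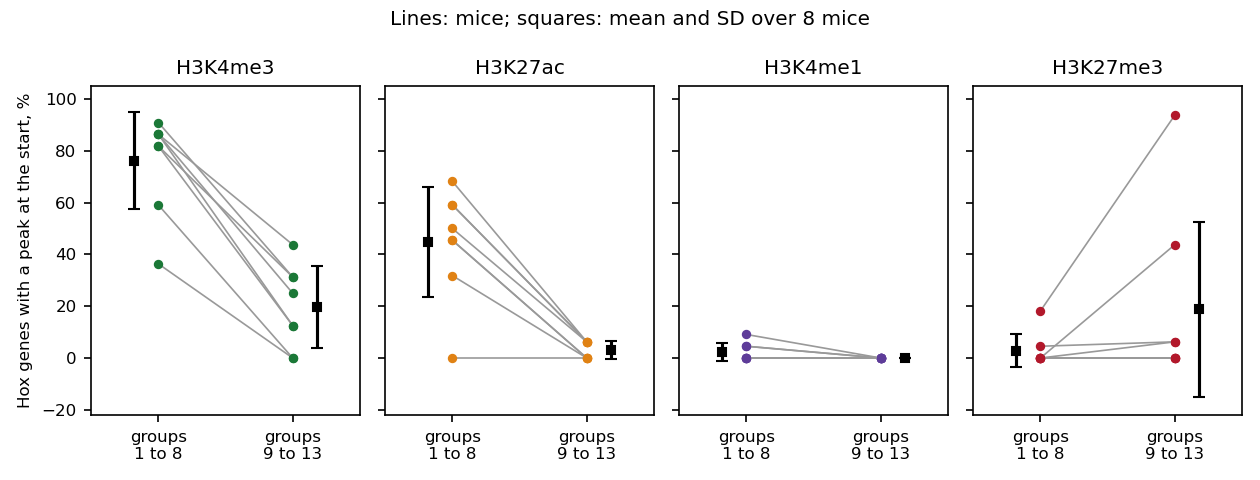
Share of the 22 anterior (groups 1 to 8) and 16 posterior (groups 9 to 13) Hox starts with a peak, in percent, with a line for each mouse and a panel for each mark; squares and bars are the mean and SD over 8 mice. The H3K4me3 lines fall in all 8 mice, from shares of 36.4% to 90.9% to shares of 0 to 43.8%, and the H3K27me3 lines of mice 5 and 11 rise to 93.8% and 43.8%.

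H3K27ac was called at fewer Hox starts than H3K4me3. It marked 0 to 16 Hox starts a mouse (median 11), 0 Hox genes in 8 of 8 mice, where 3.14% of all protein-coding genes were marked in 8, and 12 (31.6%) in at least 4 mice, against 35.9% of all. Hoxa2, Hoxa5, Hoxb2, Hoxb4, Hoxc4 and Hoxc6 had it in 7 mice, each in all but mouse 7, whose list was the shortest. Hoxa3, Hoxa4, Hoxb7 and Hoxc5 had it in 6 mice, and Hoxb5 in 5. At Hoxa7 and Hoxc8 it was called in 2 mice, and at Hoxa9 and Hoxb9 in none, where H3K4me3 was present in 6 and 4 mice. Hoxb6 had none either at the start used, with H3K4me3 in 6 mice, although Hoxb7 next to it had both marks in at least 6. At any of its 2 annotated starts, Hoxb6 had H3K27ac in 5 mice and H3K4me3 in 7. Each Hox start with H3K27ac in a mouse also had H3K4me3 in that mouse. This is near the share over all protein-coding starts with H3K27ac. Of those, 6199 of 6375 in mouse 4, the lowest share, and 6585 of 6624 in mouse 1, the highest, also had H3K4me3. At no start beyond paralog group 9 was H3K27ac found in any mouse.

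HoxD stood apart in H3K27ac. Summed over mice, H3K27ac accompanied H3K4me3 at 31 of 53 marked starts in HoxA, 26 of 47 in HoxB and 22 of 31 in HoxC, but at 4 of 28 (14.3%) in HoxD, and those 4 were Hoxd9 in mice 2, 5, 8 and 11. These counts depend on the start used for each gene. At any of its 3 annotated starts, Hoxd3 had H3K4me3 in 7 mice and H3K27ac in 5, against 0 for both marks at the start used. Over all protein-coding genes with H3K4me3, 8.14% in mouse 7 to 71.6% in mouse 2 also had H3K27ac. H3K4me3 covered a median of 20.6% of HoxA, 10.6% of HoxB, 10.7% of HoxC and 4.79% of HoxD over the 8 mice. H3K27ac covered a median of 15.8%, 7.19%, 8.24% and 0.587%. The HoxD median for H3K27ac lay below each of the other clusters, and its highest value, 1.16%, was under the median of each. The clusters were not compared by a test, since the same lists and no independent units stand behind them.

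H3K27me3 was called at 19 of 38 Hox starts (50.0%) in at least 1 mouse, against 5.95% of all protein-coding starts, and at 9 (23.7%) in at least 2 mice, against 1.12% of all. Mouse 5 gave 19 starts, mouse 11 gave 7, mouse 4 gave 2 (Hoxb1 and Hoxb13), mouse 8 gave 1 (Hoxc10) and the other 4 mice none. These numbers had the order of the list lengths, which in mice 4 and 8 were 309 and 165 peaks. Of the 16 posterior genes, 15 had H3K27me3 in at least 1 mouse and Hoxd11 was the exception. Of the 22 anterior genes, 4 had it, namely Hoxb1, Hoxb5, Hoxb7 and Hoxd3. Without mouse 5 the count of Hox starts fell from 19 to 9.

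The bases of the peaks were divided as well. A line was set in each cluster at the start of its group 9 gene, after the values were seen, which put 41.5% of the length of the clusters on the posterior side. Of the bases of H3K27me3 peaks in the clusters, 100% lay on the posterior side in mice 2 and 8, 95.0% in mouse 4, 86.0% in mouse 11 and 72.9% in mouse 5. In mouse 5 these peaks covered 28.5% of the posterior and 7.51% of the anterior bases, in mouse 11 6.40% and 0.738%, and in mouse 4 1.83% and 0.0681%. H3K4me3 gave the reverse, with 0 to 3.42% of its bases on the posterior side, and it covered 3.15% to 26.6% of the anterior side. H3K27ac had bases on the posterior side in mice 2 and 8 only (0.332% and 0.205% of its bases). With the line moved to the first start of groups 10 to 13, 49.7% of all H3K27me3 bases over the mice lay beyond it in place of 76.1%, since the stretch from each group 9 gene to the next gene, 77.2 kb in HoxB, then fell on the anterior side. Without mouse 5 the share beyond the first line was 88.5%.

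Long parts of each cluster had none of a mark in any of the 8 mice. No H3K27me3 peak was found over 69.6 kb of HoxA, which held the starts of Hoxa2 to Hoxa6, over 62.8 kb of HoxB from Hoxb2 to Hoxb5, or over 48.6 kb of HoxC with Hoxc4, Hoxc5 and Hoxc6. No H3K4me3 peak was found over 66.1 kb of HoxC, from the start of Hoxc9 (whose peaks in mice 4 and 5 lay on its anterior side) to beyond Hoxc13, or over 32.9 kb of HoxA with Hoxa10 and Hoxa11. In HoxB the longest stretch without H3K4me3 was 67.6 kb of the space between Hoxb9 and Hoxb13, which held no Hox start. In HoxD the longest such stretch was 12.8 kb.

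At the line itself, HoxA changed between Hoxa9 and Hoxa10, which lie 8.75 kb apart. The H3K4me3 peak at Hoxa9 had a fold enrichment over background of 3.03 to 14.0 in 6 mice, and its rank by −log10 q within its list ran from the 6.09 percentile (mouse 1) through 10.7 (mouse 8), 18.7 (mouse 4), 29.2 (mouse 2) and 40.1 (mouse 5) to 45.2 (mouse 11). Inside the marked stretch, medians over the marked mice were 51.6 at Hoxa2, 51.6 at Hoxa3, 78.4 at Hoxa4, 78.5 at Hoxa5, 48.3 at Hoxa6 and 43.4 at Hoxa7. H3K27me3 at Hoxa9 was called in mouse 5 only, at the 99.2 percentile of that list, with its summit at −862 bp from the start. At Hoxa10 it was called in mice 5 and 11, at the 81.3 and 64.4 percentile, with fold enrichments of 6.61 and 4.57. Between Hoxa10 and Hoxa11 4 mice had an H3K27me3 peak and none had H3K4me3, and in mouse 5 H3K27me3 covered 69.3% of that interval.

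HoxB changed between Hoxb9 and Hoxb13. H3K4me3 at Hoxb9 ranked at the 0.797 (mouse 2), 11.1 (mouse 4), 27 (mouse 11) and 35.0 (mouse 5) percentile, so that the peak in mouse 2 was near the calling limit. When only peaks at a −log10 q of 5 or more were kept, with a window of 500 bp, or without any of mice 2, 4, 5 or 11, the highest group marked in at least 4 of 8 mice, or in that share of the remaining mice, was 8 (Hoxb8). H3K27me3 at Hoxb13 was called in mice 4 and 5, at the 72.7 and 70.9 percentile with fold enrichments of 6.73 and 5.92. It was also called at Hoxb9 in mouse 5.

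HoxC changed between Hoxc8 and Hoxc9. H3K4me3 at Hoxc8 had fold enrichments of 3.78 to 29.8 and ranked from the 17.7 percentile in mouse 8 to 49.3 in mouse 5. At Hoxc9 the ranks were 10.6 in mouse 4 and 4.20 in mouse 5, lower than at Hoxc8 in the same mice. Hoxc10, described as a brake on thermogenic genes in white fat, was the Hox gene with H3K27me3 in the most mice. It was called in mice 5, 8 and 11 at the 66.0, 48.2 and 81.1 percentile, with fold enrichments of 5.10, 5.37 and 5.76. The 3 mice came from 3 conditions, cold NCD, warm HFD and cold HFD.

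HoxD had a break within the posterior genes. H3K4me3 at Hoxd9 ranked from the 28.9 percentile in mouse 1 to 52.7 in mouse 11 over 6 mice. At Hoxd13 it was called in mice 2, 4, 5 and 11, at 15.6, 0.376, 15.5 and 25.3, with fold enrichments of 2.05 to 5.51. The peak of mouse 4 was among the lowest of its list, and when only peaks at a −log10 q of 5 or more were kept, or without any of mice 2, 4, 5 or 11, the highest group of HoxD marked in that share of mice was 9. H3K27me3 was called at Hoxd13 in mice 5 and 11, at 92.6 and 76.9, where H3K4me3 was called too. The Hoxd13 window above held 37 CG, the most of the 5 printed.

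Starts with both H3K4me3 and H3K27me3 were found in mice 5 and 11 only. In mouse 5 there were 8, namely Hoxa9, Hoxb5, Hoxb7, Hoxb9, Hoxc9, Hoxd9, Hoxd10 and Hoxd13, beside 18 with H3K4me3 alone, 11 with H3K27me3 alone and 1, Hoxb3, with neither. In mouse 11 they were Hoxd9 and Hoxd13. Of the Hox starts with H3K27me3, 42.1% in mouse 5 and 28.6% in mouse 11 also had H3K4me3, against 71.5% and 57.1% of all protein-coding starts with H3K27me3. Over bases of the clusters the marks met little, since 8567 bases were shared in mouse 5, which was 11.2% of H3K4me3 and 9.23% of H3K27me3 bases, and 416 in mouse 11. H3K27ac and H3K27me3 shared 806 bases in mouse 5 and 0 in the other mice. In tissue chromatin, both marks on the same nucleosomes and each mark in different cells cannot be told apart, nor can few marked cells and weak marking of all cells.

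Noncoding genes of the clusters were divided at the same places, apart from Hoxb5os and Mir10b. Hotairm1, Hoxaas2 and Hoxaas3 in anterior HoxA carried H3K4me3 in 8 mice, and H3K27ac was found in 7, 6 and 6 of them. Hottip, at the posterior end of HoxA, had H3K27me3 in mice 4, 5 and 11, Hotair, in posterior HoxC, and Hoxa11os in mouse 5, and none of these 3 had H3K4me3. Hoxb5os had no mark. Of the 13 noncoding genes, 5 had H3K4me3 in at least 4 mice, against 54.9% of all protein-coding genes. H3K27me3 was found at 6 in at least 1 mouse, against 5.95% of all protein-coding genes. The 5 include Mir10a and Mir615, whose counts are not separate from those of neighbouring Hox genes.

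The microRNA genes, apart from Mir10b, showed the division. Their sequences group by seed, bases 2 to 8, which guides binding to messenger RNA and is given in capitals. Mature sequences are from RefSeq, GRCm38.p6, and are shown because the miR-10 and miR-196 families sit on opposite sides of the line.
miR-10a-5p (Mir10a, chr11:96317186-96317208, plus strand): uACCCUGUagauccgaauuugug
miR-10b-5p (Mir10b, chr2:74726074-74726096, plus strand): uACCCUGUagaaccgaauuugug
miR-196a-5p (Mir196a-1, chr11:96265187-96265208, plus strand): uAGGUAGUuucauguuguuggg
miR-196b-5p (Mir196b, chr6:52230129-52230150, minus strand): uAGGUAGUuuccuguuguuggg
miR-615-3p (Mir615, chr15:103014969-103014990, plus strand): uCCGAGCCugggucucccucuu
miR-10a and miR-10b share the seed ACCCUGU, miR-196a and miR-196b share AGGUAGU, and miR-615 has CCGAGCC. Mir10a, between Hoxb5 and Hoxb4, and Mir615, between Hoxc5 and Hoxc4, had H3K4me3 in 8 mice and H3K27ac in 7 within 1000 bp of the hairpin's start. The window of Mir10a reached the H3K4me3 peak already counted at Hoxb4 in these 8 mice, and that of Mir615 the Hoxc5 peak in most. These H3K4me3 counts are thus not separate from those of the neighbouring genes. Mir10b, between Hoxd8 and Hoxd4, had H3K4me3 in mouse 2 only. The 3 miR-196 loci, Mir196b between Hoxa9 and Hoxa10, Mir196a-1 between Hoxb9 and Hoxb13 and Mir196a-2 between Hoxc9 and Hoxc10, had no H3K4me3 or H3K27ac in any mouse, and each had H3K27me3 in mice 5 and 11. Mir196a-2 encodes the same mature miR-196a. miR-196a is known to target Hoxc8 messenger RNA and to favour brown fat formation from white fat progenitors. A hairpin's start need not be where its primary transcript starts, so these counts describe the locus.

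The genes next to the clusters differed among themselves. Evx1 and Evx2, homeobox genes beyond the group 13 genes of HoxA and HoxD, had no H3K4me3 and had H3K27me3 in mice 5 and 11 and in mouse 5. Skap2, on the anterior side of HoxA, and Mtx2, on that of HoxD, were marked by H3K4me3 in 8 mice and by H3K27ac in 6 and 7. Skap1, on the anterior side of HoxB, had no H3K4me3 and had H3K27me3 in mouse 5. Smug1, on the anterior side of HoxC, had no mark at its start nearest to a start codon and H3K4me3 in 8 mice at any annotated start.

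Among the genes for proteins that write or remove these marks, 14 of 17 Polycomb genes and 11 of 11 genes of the Trithorax group and the H3K27 demethylases had H3K4me3 in at least 4 mice, against 54.9% of all protein-coding genes. Ezh2, the main H3K27 methyltransferase of dividing cells, had no peak at the start used, while Ezh1 had H3K4me3 in 8 mice and H3K27ac in 6. At any annotated start, however, Ezh2 had H3K4me3 in 8 mice and H3K27ac in 5. By that count 17 of 17 Polycomb genes had H3K4me3 in at least 4 mice, so the contrast depends on the start chosen. Of the 7 genes upstream of Hox, the retinoic acid receptors Rarb and Rarg had H3K4me3 in 8 mice and Rara in 7, and the caudal genes Cdx1, Cdx2 and Cdx4 had no mark in any mouse.

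The share of each list that lay inside the clusters was compared between marks. The main test shuffled the libraries of the marks compared without regard to the mouse, and an alternative compared them within mice. H3K4me3 lists had 0.141% to 0.3% of their peaks in the clusters, 0.253% ± 0.0492 (SD, n = 8). H3K27ac had 0.153% ± 0.0523 (SD, n = 8), which was lower in 8 of 8 mice (unpaired exact permutation test, two-sided, p = 0.00140, adjusted p = 0.00210 over 3 marks). With the 3000 highest peaks of each list this turned around, with 0.0625 points more for H3K27ac (p = 0.0443, exact). H3K4me1 had 0.0268% ± 0.0241 (SD, n = 8), close to the 0.0210% of the genome that the clusters make up. It was lower than H3K4me3 in 8 of 8 mice (unpaired exact permutation test, p = 0.000155, adjusted p = 0.000466). Within mice, over all peaks, H3K27ac and H3K4me1 each differed from H3K4me3 with an exact permutation p of 0.00781 (adjusted p = 0.0117). That is the smallest p that 8 mice allow. Among the 3000 highest peaks the 5 H3K4me1 lists of that length and the H3K4me3 lists differed by −0.000833 points (p = 1, exact).

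For H3K27me3 the percentage ran from 0.752% in mouse 2 through 2.05% (mouse 5), 2.42% (mouse 8) and 3.02% (mouse 11) to 4.53% in mouse 4. It was 0 in mice 1, 7 and 10, whose lists held 47, 21 and 20 peaks. It was higher than that of H3K4me3 in 5 of 8 mice, 1.60% ± 1.69 (SD, n = 8) against 0.253%, and the difference of 1.34 points missed the threshold (exact permutation test, two-sided, p = 0.0528, adjusted p = 0.0528). Within mice, the same difference had an exact permutation p of 0.0781. It was 0.928 points without mouse 4 (exact permutation p = 0.125, unadjusted). Without mouse 1, 7 or 10 it was 1.57, 1.56 or 1.57 points, and without mice 7 and 10 together 1.86, with unadjusted exact p between 0.0152 and 0.0414, but these are the mice at 0, and leaving them out raises the difference by construction. The peaks behind the percentages numbered 132 (mouse 5), 42 (mouse 11), 14 (mouse 4), 4 (mouse 8) and 1 (mouse 2). In a list of 133 peaks, as in mouse 2, 1 peak is already 0.752%.

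**Figure D4:**
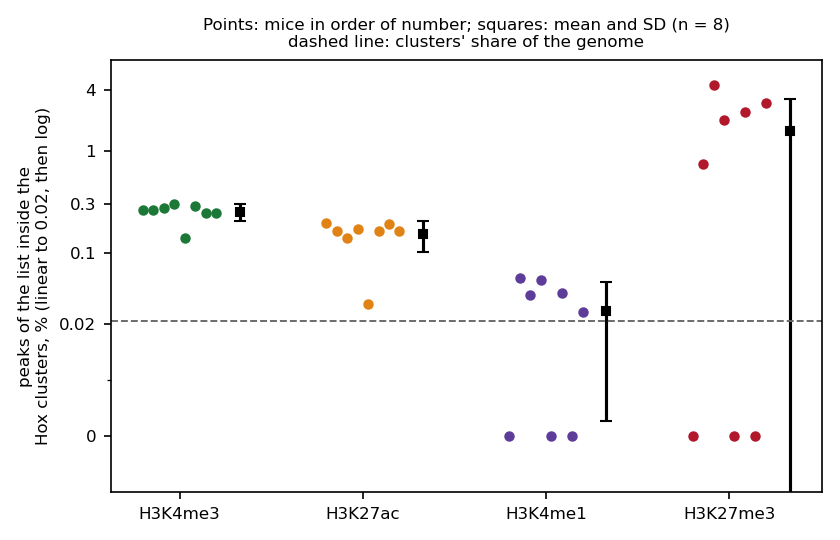
Percent of each list's peaks that touch a Hox cluster (vertical axis, linear to 0.02% and logarithmic above), by mark, with a point for each mouse in order of number; squares and bars are the mean and SD (n = 8), and the dashed line is the 0.0210% of the genome that the clusters make up. H3K27me3 lies at 0 in 3 mice and between 0.752% and 4.53% in the other 5.

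Temperature and diet were compared over the number of Hox starts with a peak, 4 mice against 4. H3K4me3 marked 21.8 ± 5.97 Hox starts in cold and 18.0 ± 6.78 in warm mice (SD, n = 4 each; exact permutation test, two-sided, p = 0.486, adjusted p = 0.777 over 8 tests). By mouse these were 23, 26, 13 and 25 in the cold and 20, 23, 8 and 21 in the warm, so the groups overlapped. Without mouse 7 the difference of 3.75 starts was 0.417. On HFD it marked 16.8 ± 7.68 and on NCD 23.0 ± 2.45 (n = 4 each, exact permutation test, p = 0.257, adjusted p = 0.686). The difference rested on mice 7 and 10, with 8 and 13 starts, and without both it was 0. H3K27ac gave differences of 2.75 starts for cold minus warm and −3.25 for HFD minus NCD (n = 4 each, exact permutation p = 0.600 and 0.457, adjusted p = 0.800 and 0.777), and without mice 7 and 10 the second turned to 2.00. Without mouse 7 alone the first turned to −0.25.

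H3K27me3 marked 2, 19, 0 and 7 Hox starts in the cold mice 4, 5, 10 and 11, and 0, 0, 0 and 1 in the warm mice 1, 2, 7 and 8. The means were 7.00 ± 8.52 and 0.250 ± 0.500 (SD, n = 4 each; exact permutation test, two-sided, p = 0.143, adjusted p = 0.571). The groups overlapped through mouse 10, whose list held 20 peaks. Without mouse 10 the difference of 6.75 starts became 9.08 (exact permutation p = 0.0286, unadjusted, the smallest that 3 against 4 mice allow). Mouse 10 was the only cold mouse at 0, so leaving it out separated the groups by construction, and no conclusion rests on that p. Without mouse 5 the difference was 2.75 (exact permutation p = 0.143, unadjusted). By diet, mean numbers were 2.00 ± 3.37 on HFD and 5.25 ± 9.22 on NCD (n = 4 each, exact permutation test, p = 0.714, adjusted p = 0.816), and without mouse 5 the difference of −3.25 turned to 1.33. H3K4me1 marked 0.500 starts on average in the cold and in the warm, and 0 on HFD and 1.00 on NCD (n = 4 each, exact permutation p = 1 and 0.143, adjusted p = 1 and 0.571). Without mouse 1 the diet difference in H3K4me1 was −1.33 starts (exact permutation p = 0.0286, unadjusted). Mouse 1 was the only NCD mouse at 0, so this too separated the groups by construction. The smallest p that 4 against 4 mice allow is 0.0286.

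**Figure D5:**
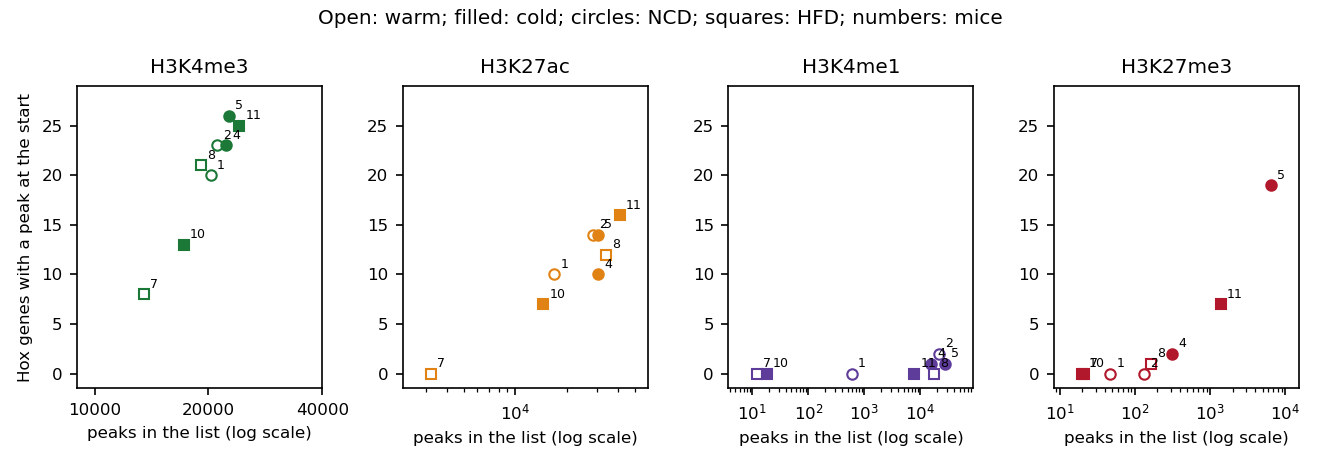
Number of Hox starts with a peak (vertical axis) against the number of peaks in the list (horizontal axis, logarithmic) for each mark, a point for each mouse labelled with its number; open symbols are warm, filled symbols cold, circles NCD and squares HFD. For H3K4me3, mice 7 and 10 have the shortest lists and the fewest Hox starts (8 and 13), and for H3K27me3 mouse 5 has the longest list and 19 starts.

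List length stood beside these counts. For H3K4me3 the number of Hox starts was lowest in mouse 7 (13517 peaks, 8 Hox starts, 39.1% of all protein-coding starts marked) and mouse 10 (17195, 13, 49.1%). It was highest in mouse 5 (22692, 26, 57.6%). Of Hox starts, 21.1% were marked in mouse 7 and 68.4% in mouse 5, a wider range than over all starts. The part of list length in the differences between conditions was not tested.

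No Hox gene had a peak at its start in all 4 mice of a group and in none of the other, for any of the 4 marks. Over all protein-coding genes the percentage with that pattern was 0.0366% (H3K4me3) and 0.0686% (H3K27ac) by temperature, and 0.119% and 0.0503% by diet. For H3K4me1 it was 0% by temperature and 0.00915% by diet, and for H3K27me3 0% by either. With at most 1 exception among the 8 mice allowed, the count of Hox genes was still 0 for each mark and factor. Of all 21851 protein-coding genes, 133 (H3K4me3) and 96 (H3K27ac) then met the pattern by temperature, and 301 and 165 by diet. For H3K4me1 13 met it by temperature and 192 by diet, and for H3K27me3 16 and 1. A count of 0 among 38 Hox genes is thus near the share over all genes. Acta1, the muscle gene with H3K4me3 in the 4 NCD mice and in no HFD mouse, and Lep, with the same mice, were among the genes that showed the pattern by diet without exception.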

How the data were processed

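Per the methods of the study and the submitters' processing notes, cutadapt trimmed the reads, bowtie2 placed them on GRCm38 and macs2 called peaks with the matching input. For versions and thresholds, nothing is given in the sources used here. Each of the 32 deposited lists holds, for a peak, the authors' fold enrichment (a ratio of signal to local background) and the −log10 p and −log10 q values deposited with it, which were used only to filter or rank peaks within a list. The smallest −log10 q in any list was 1.30. Read depth was not analysed here, so list length stands beside the counts. The 8 inputs had no list.

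Starts were taken from GENCODE M21 on GRCm38, for each gene the transcript start nearest to its own start codon, and any annotated start in an alternative. The mouse, by its label number, was the replicate. The methods leave it unclear whether tissue of a pair of mice was pooled for an experiment, and only these numbers mark separate animals, so the p-values measure the spread between these samples. Mouse numbers pair the marks of the same animal, so marks were also compared within mice. Tests were exact permutations, adjusted by Benjamini-Hochberg within each family at a threshold of 0.05. Code was tested on simulated peaks. Genes printed with values per mouse were, in each cluster, the highest-numbered gene with H3K4me3 in at least 4 of 8 mice, the next gene, and the gene with H3K27me3 in the most mice. Members and lists were chosen with earlier results of these data known. Of the lists used beside the members, Prac1 and Prac2 were not found in the annotation. The list of HOX partner proteins and some start sequences are not reported here. The alternatives are described with the limits. Python 3.11.15, pandas 2.3.3, numpy 2.4.6, scipy 1.17.1 and matplotlib 3.10.9 were used.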

Additional observations from a re-analysis of the deposited data

Results flagged for a closer look

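The number of Hox starts and the percent of peaks inside the clusters were examined, for 4 marks, over all mice and over the cold, warm, NCD and HFD mice, for a mouse far from the rest. Of these 40 sets 8 were picked out. The nominal rate of the rule is 1 in 20, but the sets share mice and several hold mostly 0, so the 8 cannot be set against that rate. Where all other mice of a group are at 0, any value above 0 is picked out by construction. The H3K4me3 list of mouse 7 had 0.141% of its peaks inside the Hox clusters, while the other 7 lists had 0.244% to 0.3% and the other warm mice 0.266% to 0.288%. For H3K27ac mouse 7 had 0.0310%, against 0.141% to 0.195%. For H3K4me1 mouse 2 had 2 Hox starts, against 0 in the other warm mice. For H3K27me3 mouse 5 had 19 Hox starts, against 0 to 7 in all other mice and 0 to 2 in the other NCD mice, mouse 8 had 1, against 0 in the other warm mice, and mouse 11 had 7, against 0 to 1 in the other HFD mice. Mouse 7 had the shortest H3K4me3 and H3K27ac lists (13517 and 3224 peaks), and mice 5 and 11 had the longest H3K27me3 lists (6428 and 1392 peaks). The part of list length in these values was not tested.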

How the results depend on the processing

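Every result recomputed kept its direction and its side of an unadjusted p of 0.05, or stayed within its limits as a count, when peaks were placed by summit, when any annotated start was used and when cluster flanks were dropped. The anterior minus posterior differences of H3K4me3 and H3K27ac did so under each alternative run except the 3000 highest peaks. Depth was not analysed here, and the shortest lists were those of H3K27me3 and H3K4me1. In the paired form of the comparison of marks (replicate block, the same mouse), the differences from H3K4me3 were −0.100 points for H3K27ac and −0.227 for H3K4me1 (exact permutation p = 0.00781 each) and 1.34 for H3K27me3 (exact p = 0.0781), and no call changed.

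With the 3000 highest peaks of each list, the anterior minus posterior difference was 2.27 points for H3K4me3 and 9.09 for H3K27ac, the diet difference in H3K4me3 starts turned to 0.5, and the differences in percent inside the clusters were 0.0625 for H3K27ac, which turned the sign, and −0.000833 for H3K4me1. No such value was run for H3K27me3, since only mouse 5 had a list of that length. Hox genes with H3K4me3 and H3K27ac in at least 4 of 8 mice then numbered 0 and 3 in place of 23 and 12, and those with H3K4me1 in any mouse 0 in place of 3. With a −log10 q of at least 5, H3K4me1 was left at 0 Hox genes and the highest group with H3K4me3 in that share of mice was 8 in HoxB and 9 in HoxD. It was 8 in HoxB with a window of 500 bp, and a window of 2000 bp gave 7 Hox genes with H3K4me1. Without mice 7 and 10, the diet difference in H3K27ac starts turned to 2 and the H3K27me3 difference in percent inside the clusters was 1.86. The cause of these changes was not tested.

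Leaving out 1 mouse at a time, the highest group ran from 8 to 9 in HoxB and from 9 to 13 in HoxD, Hox genes with H3K27me3 in any mouse from 9 to 19 and those with H3K4me1 from 1 to 3. The temperature difference in starts ran from −0.25 (without mouse 7) to 4.42 for H3K27ac and from 2.75 (without mouse 5) to 9.08 (without mouse 10) for H3K27me3. The diet difference ran from −1.33 to −0.667 for H3K4me1 and from −5 to 1.33 (without mouse 5) for H3K27me3. The difference in percent inside the clusters ran from 0.928 (without mouse 4) to 1.57 for H3K27me3. Chosen after seeing the data, the line at groups 10 to 13 gave 49.7% of H3K27me3 bases beyond it in place of 76.1%, and leaving out mouse 5 gave 88.5%.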
